A study of Mus musculus with 2 samples.

Results

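The polyamine metabolism genes described here are Odc1, Amd1, Srm, Sms, Sat1, Smox, Oaz1, Oaz2 and Azin1. They were taken by symbol and not by their values from the deposited table, though with earlier results of these data known. All 9 were listed among the 14197 genes of the table. The RNA came from wild-type 4T1 cells, a mouse breast cancer line, that received either astragalin (AS), a plant flavonoid, at 20 μM for 24 h or its vehicle. Whether these were the luciferase-labeled 4T1 cells that the study also made is not given in the sources used here. Each condition is represented by 1 library of stranded mRNA, so no difference below has a replicate check, and the treatment cannot be told apart from any other difference between the dishes. Levels are RPKM, in which reads are divided by the exon length of the gene and by the size of the library.

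Polyamines are small, positively charged molecules that bind nucleic acids and are needed for translation and growth. Ornithine decarboxylase makes putrescine, and aminopropyl groups drawn from decarboxylated S-adenosylmethionine turn it into spermidine and then spermine. Excess polyamines are acetylated or oxidized, and they also induce antizyme, which directs ornithine decarboxylase to the proteasome. Antizyme inhibitor resembles the decarboxylase, lacks its activity and holds antizyme away from it. Tumor cells often carry high ornithine decarboxylase activity, and its gene is a classical target of MYC.

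Antizyme mRNAs carry a stop codon inside the coding region, and the ribosome must change reading frame at that codon to make the full protein. The sequence around this site is shown for both antizyme genes and for Oaz1-ps, a processed pseudogene of Oaz1, because the reads of Oaz1 and its copy bear on the results below. Each line holds 60 bases of a GENCODE M21 transcript, and the capitals mark the last codon before the shift, followed by the stop codon.
Oaz1: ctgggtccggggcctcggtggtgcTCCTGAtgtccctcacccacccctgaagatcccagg
Oaz1-ps: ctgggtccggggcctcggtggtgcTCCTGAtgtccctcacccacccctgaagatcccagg
Oaz2: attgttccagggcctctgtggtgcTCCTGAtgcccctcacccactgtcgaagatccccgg
In GRCm38 these windows lie at chr10:80828268-80828327 on the plus strand for Oaz1, chr17:17345904-17345963 on the minus strand for Oaz1-ps and chr9:65686245-65686304 on the plus strand for Oaz2. Each lies within 1 exon of its transcript. The Oaz1 and Oaz1-ps windows differed at 0 bases, and the Oaz2 window differed from them at 11 bases.

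To see whether AS treatment went with a different supply of polyamine mRNAs, the AS library was compared with the vehicle library for each gene. Amd1, Smox, Sat1 and Odc1 were higher with AS, Oaz1, Srm, Oaz2, Sms and Azin1 were lower, and all of these differences were small. The log2 fold change, taken after 0.1 RPKM was added to both values, ran from -0.33 for Oaz1 to 0.24 for Amd1, with a median of -0.043 beside 0.066 for all genes. Intervals given with these values are those of the read ratio, with nothing added. Of the 9 genes, 0 passed the study's fold threshold of 1 on the log2 scale, which 0.972% of all genes passed. At the study's lower fold threshold, a 1.5-fold difference, 0 of the 9 passed again, beside 5.57% of all genes. The study joined each threshold to a significance cut, an FDR or a p-value, which was not applied here. The range of the 9 genes held 69.5% of all genes, and their median absolute log2 fold change was 0.20, beside 0.17 for all genes. In bulk RNA, a share of cells with more of an mRNA cannot be told apart from more of it in every cell.

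**Figure D1:**
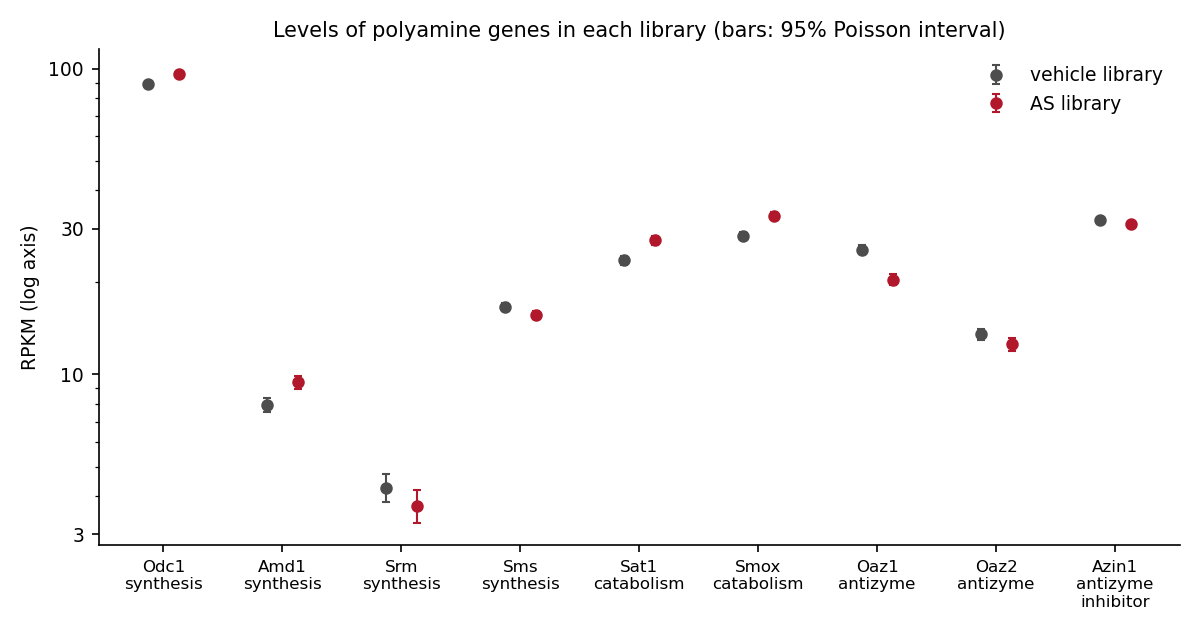
RPKM of each polyamine gene (log axis) in the vehicle library (grey) and the AS library (red), ordered by role; bars are 95% Poisson intervals and cover counting error only. Odc1 stood highest in both libraries and Srm lowest, and the 2 points of every gene lie close together.

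Whole reads were recovered for all 9 genes and ranged from 266 for Srm with AS to 15382 for Odc1 with the vehicle. The 95% Clopper-Pearson interval of the read ratio lay off a log2 ratio of 0 for 8 of the 9 genes, beside 57.8% of all genes with recovered reads. These shares were not matched for read number, on which the width of an interval depends. They are set against 0 and not against the median of all genes, 0.066. Such intervals are narrow at this depth and cover counting error only, so they say nothing of the spread between dishes. Against the median of all genes, 4 of the polyamine genes were higher and 5 were lower.

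Among the genes of synthesis, Odc1 encodes ornithine decarboxylase, the rate-limiting enzyme that opens the pathway. Odc1 lies on chromosome 12 of GRCm38 from 17544794 to 17551505 and stood at 96.0 RPKM under AS against 88.9 RPKM under vehicle (14687 and 15382 reads). Its log2 fold change was 0.11, with an interval of the read ratio from 0.079 to 0.14, and 65.8% of all genes differed by more than Odc1 did. That value was 0.041 with trimmed mean scaling, 0.045 when centred on the median of all genes, 0.057 with upper-quartile scaling and 0.19 with the trend of fold change with expression removed. In both libraries Odc1 was the most abundant of the 9 mRNAs, and its mean level was above those of 96.0% of the genes in the table.

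Amd1 encodes S-adenosylmethionine decarboxylase, which supplies the aminopropyl groups. Amd1, on chromosome 10 from 40287458 to 40302186, stood at 9.42 RPKM under AS against 7.93 RPKM under vehicle (1499 and 1429 reads). Its log2 fold change of 0.24 was the highest of the 9 genes, with an interval from 0.14 to 0.35, and 34.8% of all genes differed by more. The mRNAs of both enzymes that decarboxylate a precursor were thus higher in the AS library, by 8.05% for Odc1 and 18.7% for Amd1. These percentages are without rescaling, and the median gene was itself higher by 0.066 on the log2 scale.

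The aminopropyl transferases lay on the other side. Srm, the gene of spermidine synthase on chromosome 4 from 148591503 to 148594993, stood at 3.70 RPKM under AS against 4.26 RPKM under vehicle (266 and 346 reads). Its log2 fold change was -0.20, and with so few reads its interval, from -0.44 to 0.034, was the only 1 of the 9 that included 0. Sms, the gene of spermine synthase on chromosome X from 157443855 to 157492287, stood at 15.6 RPKM under AS against 16.6 RPKM under vehicle, and the log2 difference was -0.087 with an interval from -0.15 to -0.029. The Sms level was 4.22 times that of Srm with AS and 3.90 times with the vehicle.

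The catabolic genes were both higher with AS, and by nearly the same amount. Sat1 encodes spermidine/spermine acetyltransferase, which marks polyamines for export or oxidation, and lies on chromosome X from 155213132 to 155216449. Sat1 stood at 27.4 RPKM under AS against 23.6 RPKM under vehicle (3417 and 3334 reads), and the log2 difference was 0.21 with an interval from 0.14 to 0.28. Smox encodes spermine oxidase, which returns spermine to spermidine and releases hydrogen peroxide, and lies on chromosome 2 from 131491496 to 131525922. Smox stood at 33.03 RPKM under AS against 28.4 RPKM under vehicle (5777 and 5626 reads), and the log2 difference was 0.22 with an interval from 0.16 to 0.27. The share of all genes that differed by more was 41.1% for Sat1 and 40.4% for Smox. Centred on the median of all genes, the value was 0.15 for Sat1 and 0.15 for Smox. The ratio of Sat1 to Smox was 0.830 with AS and 0.832 with the vehicle. Summed, the RPKM of both catabolic genes was 3.13 times that of Srm and Sms with AS and 2.496 times with the vehicle.

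**Figure D2:**
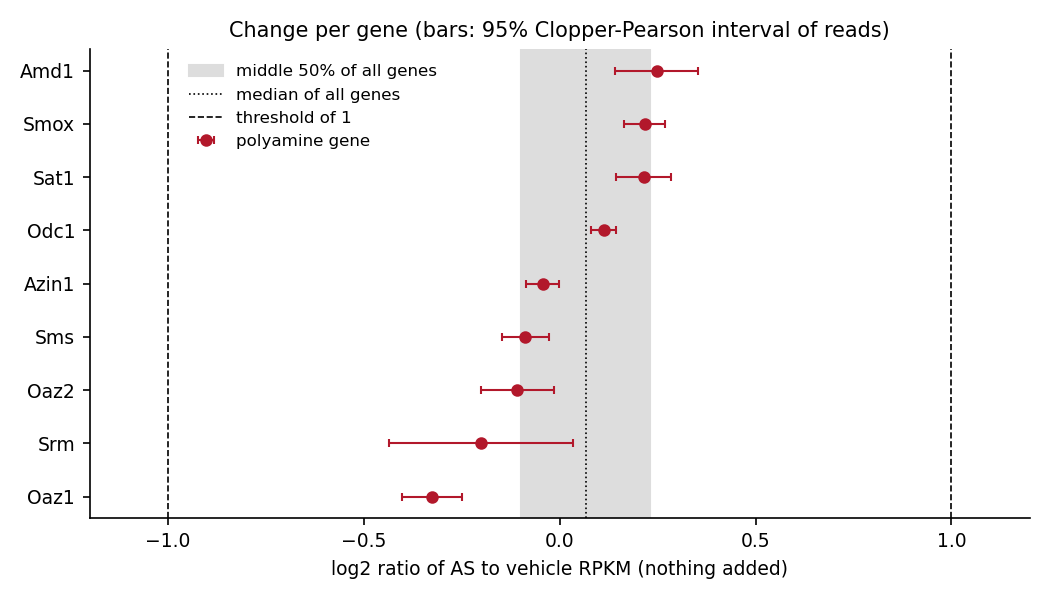
Log2 ratio of AS to vehicle RPKM with nothing added (x axis) for each polyamine gene, with 95% Clopper-Pearson intervals of the reads; the grey band holds the middle 50% of all genes and the dotted line their median (both with 0.1 RPKM added), and the dashed lines mark the threshold of 1. Oaz1, at -0.33, and Amd1, at 0.25, lie at the ends, and all 9 genes lie well inside the threshold.

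Oaz1 showed the largest difference of the 9 genes. Oaz1 encodes antizyme 1, the main brake on ornithine decarboxylase and on polyamine uptake, and lies on chromosome 10 from 80826656 to 80829290. Oaz1 stood at 20.4 RPKM under AS against 25.6 RPKM under vehicle (2342 and 3324 reads), so RPKM was 0.798-fold that of the vehicle after 0.1 was added. The pseudogene Oaz1-ps, which has a row of its own in the table, is taken up after the other genes. The log2 fold change was -0.33 with an interval from -0.40 to -0.25, and 22.1% of all genes differed by more in either direction. Oaz2, the gene of the related antizyme 2 on chromosome 9 from 65668001 to 65690300, stood at 12.5 RPKM under AS against 13.5 RPKM under vehicle. Its log2 fold change was -0.11 with an interval from -0.20 to -0.014, which did not overlap that of Oaz1.

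Azin1, the gene of antizyme inhibitor 1 on chromosome 15 from 38487427 to 38519266, differed least in the RPKM as deposited. Azin1 stood at 30.9 RPKM under AS against 31.9 RPKM under vehicle (8693 and 10139 reads), and the log2 difference was -0.043 with an interval from -0.085 to -0.0021. Of all genes, 86.3% differed by more than Azin1 did. Trimmed mean scaling gave -0.11 for Azin1, -0.16 for Sms and -0.18 for Oaz2, each more than 1.5 times the value above. With that scaling Odc1 differed least, at 0.041, as it did when centred on the median of all genes and with upper-quartile scaling. Azin1 shares 358 exon bases with Gm49077 on the opposite strand, which stood at only 2.90 RPKM under AS and 2.33 RPKM under vehicle, and the strand setting of the counting is not given in the sources used here.

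Set against the antizymes within each library, Odc1 and Azin1 both stood higher with AS. The RPKM of Odc1 was 2.92 times the sum of Oaz1 and Oaz2 with AS and 2.27 times with the vehicle, a difference of 0.36 on the log2 scale. The same ratio for Azin1 was 0.940 and 0.816, a difference of 0.20. With the same reads divided by the length of each gene's longest coding transcript, the Odc1 ratio was 2.15 and 1.65 and the Azin1 ratio 0.576 and 0.493. The log2 differences were 0.38 and 0.22, so the size of such a ratio rests on the length used. Sat1 over Smox was likewise 1.17 in each library over these lengths, above 1 instead of below it. All of these ratios use each gene's own row and leave out the reads of its copies, described below. Of the summed reads of Oaz1 and Oaz1-ps, 44.0% (AS) and 48.6% (vehicle) were on Oaz1-ps. The ratios are of mRNA levels, and neither frameshifting nor the stability of the proteins was measured.

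Many processed copies of these genes exist in the mouse genome, and reads that match a gene and its copy equally well cannot be placed with certainty. A search of GENCODE M21 transcripts at 90% identity over at least 300 bases found 32 copies, of which 7 had a row in the table. The copies in the table belong to Odc1 (3), Amd1 (2), Sms (1) and Oaz1 (1), and their rows were examined after the values were seen.

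Oaz1-ps was the copy with the largest part in a gene's reads. Oaz1-ps matched Oaz1 at 99.7% of 685 aligned bases and shared an unbroken run of 513 bases with it. Oaz1-ps stood at 59.9 RPKM under AS against 90.2 RPKM under vehicle (1843 and 3139 reads). Its log2 fold change of -0.59 was past the 1.5-fold threshold, with an interval from -0.67 to -0.51 that lay below that of Oaz1. The rows of Oaz1 and Oaz1-ps together held 4185 reads with AS and 6463 with the vehicle, of which 44.0% and 48.6% were on the pseudogene. Their summed log2 fold change was -0.45, with an interval from -0.51 to -0.39, so the difference was larger with the copy included. How the counting treated reads with several matches is not given in the sources used here.

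The other copies altered their gene's difference less. For Odc1, the copies Gm7993, Gm17709 and Gm9260 held 22.3% of the summed reads with AS and 23.3% with the vehicle, most of them on Gm7993, which had 3871 and 4307 reads. Gm7993 matched Odc1 at 95.7% of 1388 aligned bases. Its longest unbroken run shared with Odc1 was 167 bases, shorter than the 513 of Oaz1-ps with Oaz1. How many of its reads match both equally well was not measured. The summed log2 fold change of Odc1 and its copies was 0.094, with an interval from 0.065 to 0.12. For Amd1, the copies were Amd2, an intact gene that matched it at 99.6% of 3202 aligned bases, and the pseudogene Amd-ps3. These held 17.9% (AS) and 21.05% (vehicle) of the summed reads, and the summed log2 fold change was 0.19 with an interval from 0.096 to 0.28. Sms-ps matched Sms at 100% of 1101 bases but held only 1.63% and 1.38% of the summed reads, and the summed value was -0.084.

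**Figure D3:**
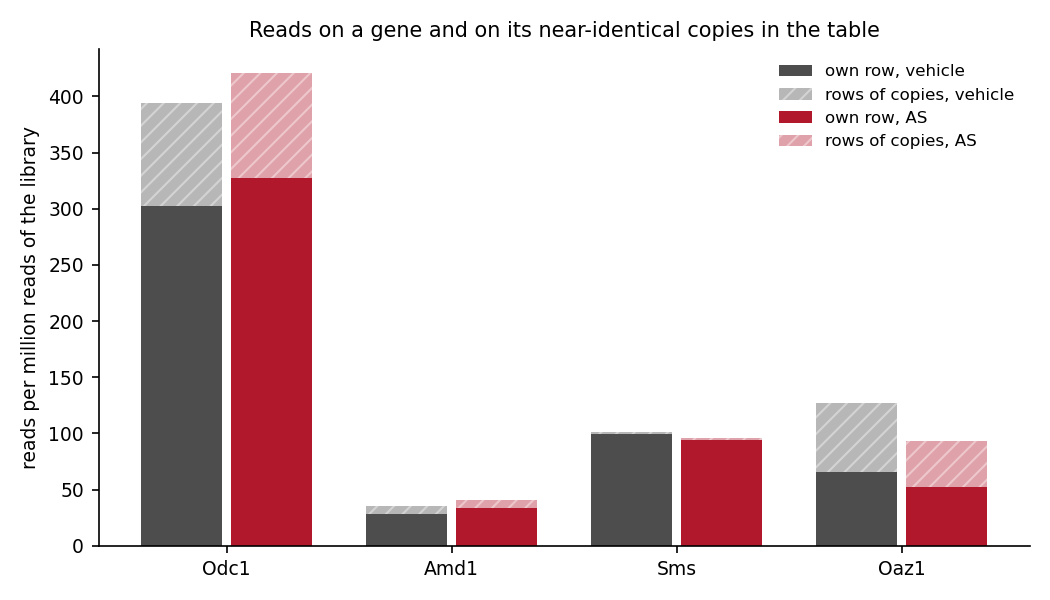
Reads on 4 polyamine genes (solid) and on the rows of their copies of at least 90% identity (pale, hatched), in the vehicle library (grey) and the AS library (red), scaled to the reads of each library (y axis, RPM). The total for Oaz1 with its pseudogene shows the widest gap relative to its height, a log2 difference of -0.45, beside 0.094 for Odc1, 0.19 for Amd1 and -0.084 for Sms.

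The order of levels was much alike in both libraries. With AS it ran from Odc1 through Smox, Azin1, Sat1, Oaz1, Sms, Oaz2 and Amd1 to Srm. With the vehicle, Azin1 stood above Smox and Oaz1 above Sat1, and the order was otherwise that of the AS library. Neighbors in either order had counting intervals that did not overlap, but without replicates their spread is unknown. Each level is from the gene's own row, and the Oaz1 level would be higher with the reads of Oaz1-ps added. The order also rests on the exon length used, since the table divides by all annotated exons, retained introns included. The same reads were also divided by the length of the longest coding transcript, without removing those on exon bases outside it. For Oaz1, with 1071 bases in place of 2558, the level was then 48.7 with AS and 61.1 with the vehicle. Oaz1 stood at position 4 with AS and 2 with the vehicle. Sat1 then had 65.5 and 56.5, at positions 2 and 3.

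Lists of 59 surrounding genes were set beside the 9, covering paralogs and other polyamine enzymes, precursor supply, transport, hypusine formation and the MYC network. Of these, 42 were in the table, 27 higher and 15 lower with AS, beside 60.9% of all genes higher with AS. Their median log2 fold change was 0.088, beside 0.066 for all genes. Slc3a2 alone was past a log2 fold change of 1, which is 2.38% of the 42 genes beside 0.972% of all genes. At 1.5-fold, 4 were higher and 2 lower, 14.3% of the 42 genes beside 5.57% of all genes. The lists were chosen with earlier results of these data known, so these shares are not an independent test.

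Among the genes of transport, 6 of 14 were in the table, with a median of 0.21. Slc3a2, the heavy chain of several amino acid exchangers and a part of a diamine exporter, stood at 99.6 RPKM under AS against 36.8 RPKM under vehicle (15792 and 6603 reads). Its log2 fold change was 1.43, with an interval of the read ratio from 1.39 to 1.48. The other 5 transport genes in the table were all below the 1.5-fold threshold.

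The genes of arginine and ornithine supply went both ways. Slc7a1, a transporter of arginine, lysine and ornithine, stood at 15.1 RPKM under AS against 8.82 RPKM under vehicle, and the log2 difference was 0.77 with an interval from 0.73 to 0.83. Arg1, the cytosolic arginase that yields ornithine, stood at 1.52 RPKM under AS against 2.69 RPKM under vehicle (152 and 305 reads). Its log2 difference was -0.79 with an interval from -1.12 to -0.54. The other listed arginase, Arg2, went the other way, at 1.53 RPKM under AS against 0.99 under vehicle (98 and 72 reads). Its log2 fold change was 0.576, just short of the 1.5-fold threshold, with an interval of the read ratio from 0.17 to 1.08. Oat, ornithine aminotransferase, was the most abundant gene of this list, at 17.9 RPKM under AS against 22.0 under vehicle and a log2 fold change of -0.30. The median over 7 of the 10 listed genes was -0.20.

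Of 12 genes of methionine use and salvage, 11 were in the table, with a median of 0.060. Mtrr, which keeps methionine synthase active, stood at 3.05 RPKM under AS against 1.92 RPKM under vehicle, and the log2 difference was 0.64 with an interval from 0.50 to 0.84. Got1, a cytosolic aspartate aminotransferase, was just past the 1.5-fold threshold, at 18.0 RPKM under AS against 11.9 under vehicle and a log2 fold change of 0.59. Mtap recycles methylthioadenosine, the by-product of spermidine and spermine synthesis, and was the most abundant of this list. It stood at 273 RPKM under AS against 279 under vehicle, and the log2 difference was -0.034.

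Hypusine is made from spermidine on eIF5A, a translation factor that needs it to act. Eif5a stood at 148 RPKM under AS against 200.7 RPKM under vehicle (15805 and 24244 reads), and the log2 difference was -0.44 with an interval from -0.47 to -0.41. All 4 genes of this list were in the table, and 0 of them passed the 1.5-fold threshold.

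In the MYC network, 10 of 11 genes were in the table, with a median of 0.19. Myc, the most abundant of them on the mean of both libraries, though below Mxi1 with the vehicle, stood at 29.7 RPKM under AS against 23.1 RPKM under vehicle, and the log2 difference was 0.36 with an interval from 0.29 to 0.43. Mxd3, a MAX-binding repressor, stood at 7.11 RPKM under AS against 12.5 under vehicle and was the only member of this list past 1.5-fold, at -0.80 with an interval from -0.94 to -0.68. Of the 8 listed paralogs and other polyamine enzymes, 4 were in the table, 3 higher and 1 lower with AS, and 0 passed the 1.5-fold threshold. The most abundant, Paox, an oxidase of acetylated polyamines, stood at 4.06 RPKM under AS against 4.03 under vehicle. Azin2, a paralog of Azin1, differed most, at 2.68 RPKM under AS against 1.98 under vehicle and a log2 fold change of 0.42.

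**Figure D4:**
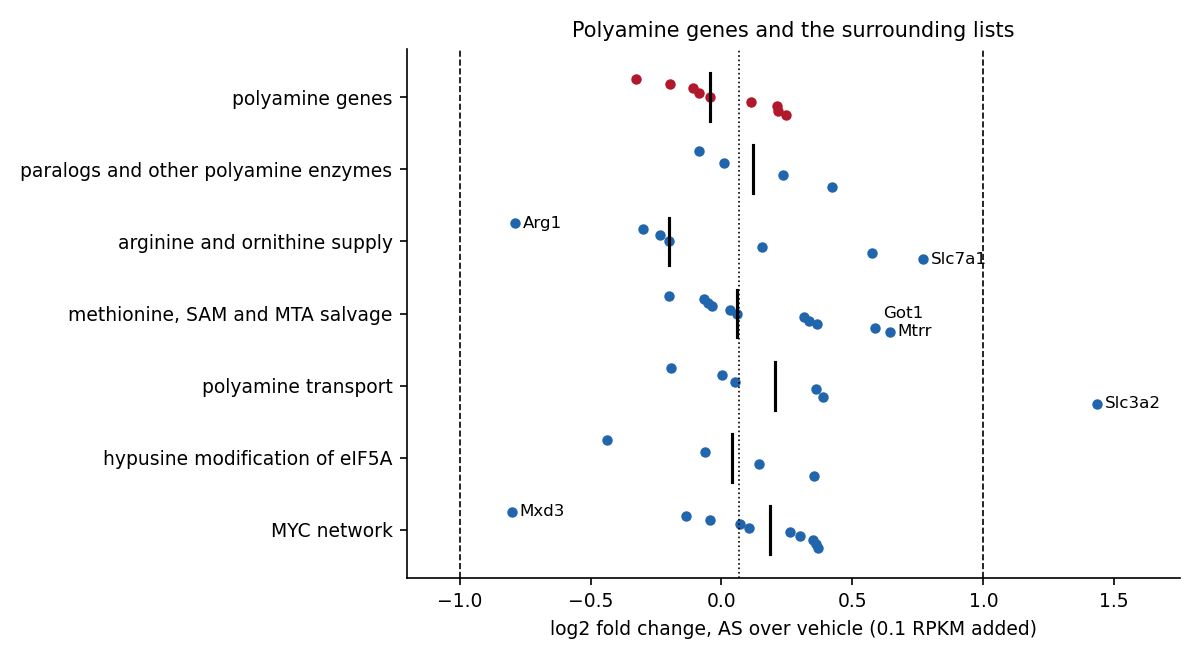
Log2 fold change of AS over vehicle, with 0.1 RPKM added (x axis), for the 9 polyamine genes (red) and the 42 surrounding genes (blue) by list; black bars are list medians, dashed lines the threshold of 1 and the dotted line the median of all genes. Genes past 1.5-fold are named, and Slc3a2 at 1.43 is the only gene past 1.

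The library sizes implied by the RPKM were 44909683 reads with AS and 50820728 with the vehicle. All 7 epithelial markers listed for a mammary carcinoma line were in the table, from 13.4 to 707 RPKM with AS and from 14.1 to 902 with the vehicle. Their summed level was 1777 RPKM with AS and 2292 with the vehicle. The keratins Krt8, Krt18, Krt7 and Krt19 were lower with AS, Epcam and Cldn7 were slightly lower, and Cdh1 was higher, at 95.5 against 84.6 RPKM. The part of the summed level in the differences above was not tested. Of 6 leukocyte markers 3 were listed, none above 0.407 RPKM, and of 6 fibroblast and endothelial markers only Pdgfra was, at 4.24 and 4.16 RPKM.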

How the data were processed

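Total RNA of both samples was made into stranded mRNA libraries. The submitters' processing notes name fastp 0.23.4, STAR 2.5.3a and featureCounts, and the build GRCh38, which is human although the listed genes are mouse. The authors deposited 1 table with the RPKM of each library. Its other 4 columns hold the authors' own log2 fold change, mean log2 CPM, p-value and FDR and were not used. The unit is not named in the table and was found from its values.

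RPKM times the summed exon length in GENCODE M21 (GRCm38) times 1 library size gave whole reads (within 0.0001) in both libraries for 12715 of 13502 genes with a single entry. For 604 others, among them Amd1, the nearest whole length within 1.4 times was used. Fold changes are log2 ratios of AS to vehicle with 0.1 RPKM added on each side; this shrinks the ratios of weakly expressed genes. No p-value was computed. Intervals are 95% Clopper-Pearson or Poisson intervals of reads without molecular identifiers. The recovery was tested on simulated data. Copies were sought with BLAST 2.17.0, and the rest ran in Python 3.11.15.

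The genes and lists were chosen with earlier results of these data known. Named are the 9 genes and, of the surrounding lists, those past 1.5-fold and the most abundant of each list. Copies, Arg2, Azin2, Mxi1 and Gm49077 were named after their values were seen. Likeness of pattern cannot be measured over 2 libraries.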

Additional observations from a re-analysis of the deposited data

How the results depend on the processing

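The signs of the 9 log2 fold changes were the same under every alternative run, 9 for Odc1, Amd1, Sms and Oaz1 and 8 for the other genes, which have no copy in the table, and 0 genes passed the threshold of 1 under any of them or 1.5-fold in the main values. The median over the 9 genes, -0.043, was -0.11 when centred on the median of all genes, -0.098 with upper-quartile scaling and -0.11 with trimmed mean scaling, which lower all log2 fold changes nearly alike by 0.054 to 0.069. Of 76 values of single genes under alternatives, 62 stayed within the gene's counting interval; the value of Oaz1 moved most with the reads of Oaz1-ps added, an alternative chosen after seeing the data, as was the length of the longest coding transcript. The surrounding genes past the threshold numbered 1, and 6 at 1.5-fold. Over all genes, 138 were past the threshold with 0.1 RPKM added, 227 with 0 and 54 with 1 RPKM added. No paired analysis was possible because each condition has 1 library, and for the same reason no library could be left out.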
